A study of Homo sapiens with 4 samples.

Results

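The nuclear-encoded subunits of the mitochondrial respiratory chain were described in A673 cells given CBL0137. They were chosen by symbol as the protein-coding genes whose names mark a numbered NDUF subunit of complex I, a succinate dehydrogenase subunit of complex II, a UQCR subunit of complex III, a COX subunit of complex IV in the families COX5A to COX8, or an ATP5 subunit of the ATP synthase, complex V. The rule uses symbols and no measured value, though it was set with earlier results of these data known. It found 86 genes among the 60617 of the deposited table, of which 39 carried names of complex I, 4 to complex II, 9 to complex III, 14 to complex IV and 20 to complex V. The rule also matched 127 rows of other gene types, 121 of them pseudogenes, which were left out. Of the 86 genes, 79 had enough reads to be tested and 7 did not.

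A673 is an established Ewing sarcoma cell line, driven by a fusion of EWSR1 with FLI1 and without functional p53. Cells of 1 line were treated with CBL0137 at 1 µM for 24 h (2 libraries) or with its solvent DMSO for 24 h (2 libraries), and their RNA was sequenced. CBL0137 is a curaxin, a DNA-binding compound that traps the histone chaperone FACT on chromatin. Sequencing gave between 20483714 and 23373554 reads assigned to genes per library. All 6 markers listed for the Ewing line were detected, while 0 of 5 epithelial and 0 of 6 testis germ cell markers had enough reads for a test. Of the other lists, 2 of 4 blood and 3 of 10 striated muscle markers had enough reads. Separate cultures are not stated for the libraries of a condition, so the p-values reflect the spread among 4 libraries, and that spread may be technical.

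The respiratory chain sits in the inner mitochondrial membrane and passes electrons from NADH and succinate to oxygen. Complexes I, III and IV pump protons as they do so, and complex V uses the returning protons to make ATP. Most subunits are encoded in the nucleus and imported, a few core subunits are encoded in mitochondrial DNA, and the balance between the sources is set in part by nuclear factors such as NRF1 and GABP that bind many of these promoters.

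Most transcripts that passed the test were lower with CBL0137, and by small amounts. Of the 79 tested genes, 34 fell and 5 rose at an edgeR quasi-likelihood Benjamini-Hochberg adjusted p under 0.05, and 40 did not pass; "fell" and "rose" are used below for that limit. Over all 17309 genes tested, 19.0% fell and 17.5% rose. DESeq2 passed 24 lower and 2 higher, and limma-trend on the deposited FPKM passed 6 lower and 4 higher. With library size alone, 25 subunit genes fell and 8 rose, beside 2458 and 4109 of all genes, and with upper-quartile factors 28 fell and 8 rose, beside 2651 and 3864. Without DMSO replicate 2, 3 subunit genes rose. The median log2 fold change of CBL0137 over DMSO was -0.13 for the 79 genes and 0.00 for all genes tested, and the range over the 79 was -0.72 to 0.86. Adding a limit of 1.5-fold left 0 genes lower and 2 higher, NDUFA13 and NDUFA4L2, against 2.73% lower and 6.88% higher over all genes. With an unadjusted p in place of the adjusted one, 1 gene, NDUFV2, lay below that fold limit, and DESeq2, limma-voom and limma-trend on FPKM each placed 0 there. Expression is given as CPM, the reads of a gene scaled to library depth with TMM factors. It is relative to the other genes of a library, so a change in RNA per cell, or in the number of cells, cannot be told apart in it.

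The summed expression of the 86 genes was 6802 and 6848 CPM in the CBL0137 libraries, against 7612 and 7645 CPM in the DMSO libraries, which was 10.5% lower. The groups did not overlap. Without TMM factors, the 86 genes held 0.697% and 0.695% of all gene counts with CBL0137, against 0.744% and 0.747% with DMSO, a smaller difference. The sum was 13.0% lower for complex III and for complex IV, 11.9% lower for complex V, 7.69% lower for complex I and 4.97% lower for complex II, and the libraries of the groups stood apart in each. These CPM sums by complex were formed with TMM factors only, and how far they depend on that scaling was not tested. On FPKM the sums of complex I overlapped, at 2151 and 2211 with CBL0137 and 2263 and 2192 with DMSO. The other complexes stood apart on FPKM. Complex II had 161 and 177 with CBL0137, against 223 and 182 with DMSO. In the same order, complex III had 505 and 501 against 541 and 543. Complex IV had 1097 and 1135 against 1218 and 1206.5, and complex V had 1803 and 1867 against 1926 and 1956. All 86 genes had 5717 and 5892 against 6171 and 6080. Genes with counts far below their FPKM, described below, weigh less in the CPM sums. The complex IV sums leave out NDUFA4 and COX4I1. Gene by gene, both CBL0137 libraries lay below both DMSO libraries in 46 of the 79 genes and above them in 10, against 33.4% and 33.5% of all genes tested.

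**Figure D1:**
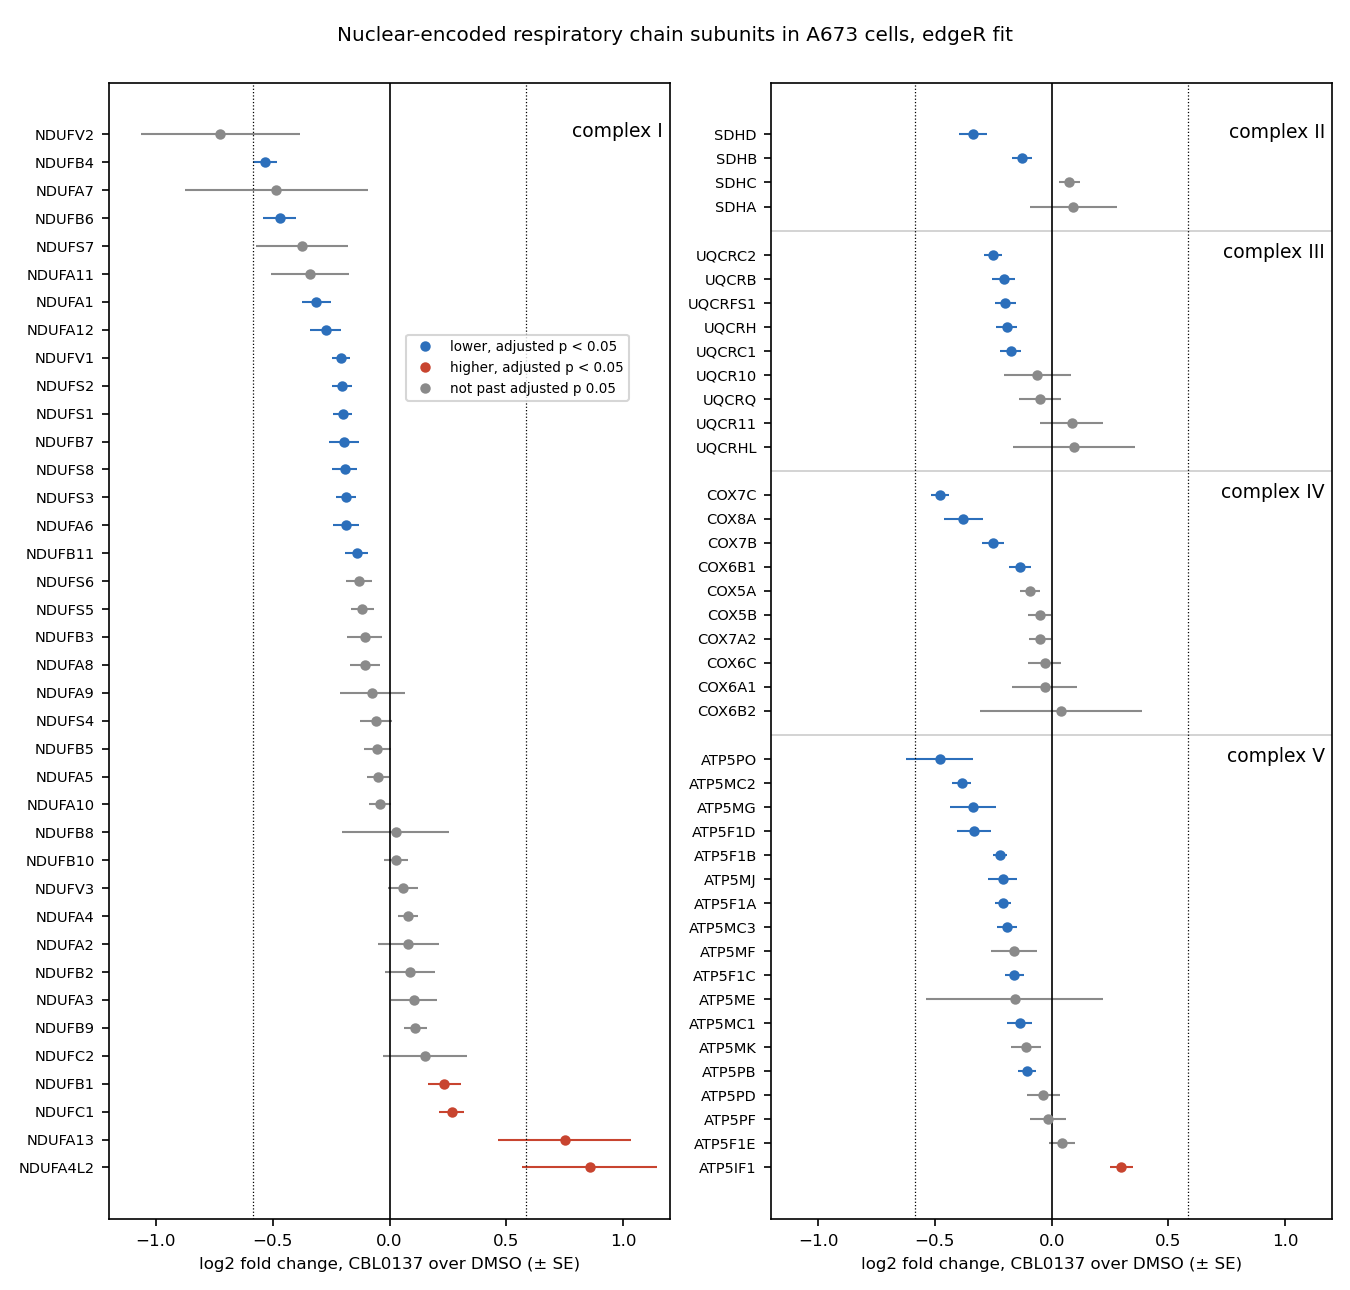
Log2 fold change of CBL0137 over DMSO (horizontal axis) with its standard error for each of the 79 tested genes, by complex. Points left of 0 were lower with CBL0137; 34 of the genes fell, 5 rose, and 0 fell by more than 1.5-fold.

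The share of genes that fell was larger at higher expression. Among genes averaging at least 100 CPM over the 4 libraries, 17 of 23 subunit genes fell and 0 rose, against 41.4% of all genes at that level that fell and 21.1% that rose. Between 50 and 100 CPM 9 of 19 subunit genes fell, against 33.3% of all genes there. Between 10 and 50 CPM 7 of 19 fell, against 22.0%, and below 10 CPM 1 of 18, against 4.96%. All bands but the highest hold fewer than 20 subunit genes. Across genes, Spearman's rho between mean CPM and the log2 fold change was -0.23 over the 79 subunit genes and -0.22 over all 17309, where the genes share the same 4 libraries and the same depth and are not independent replicates.

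**Figure D2:**
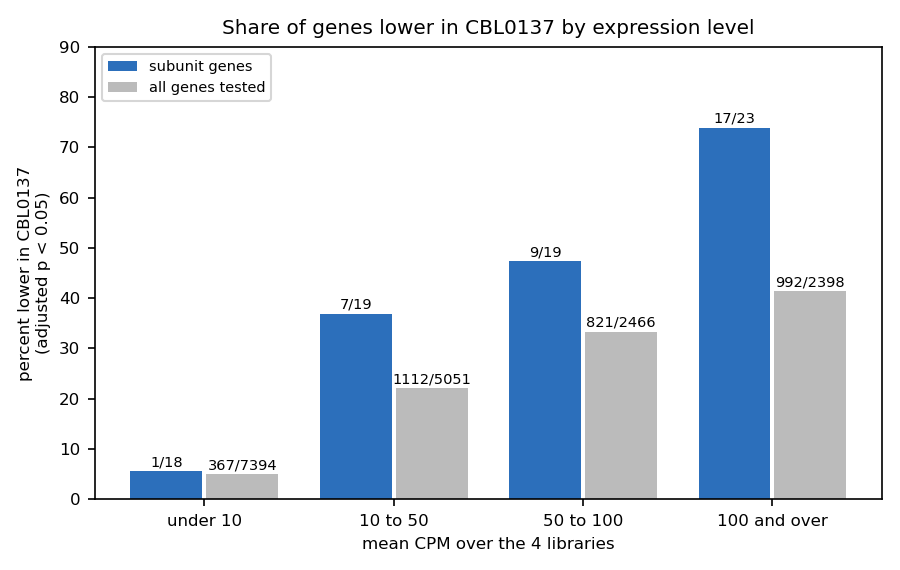
Share of genes that fell at an adjusted p under 0.05 (vertical axis, percent) by mean CPM over the 4 libraries (horizontal axis), for the subunit genes and for all genes tested. The subunit share was 73.9% at 100 CPM or more, against 41.4% of all genes.

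Promoter sequences are shown for 4 genes described below that differ in direction and in the motifs they hold, 3 that fell (NDUFB4, SDHD and COX7C) and 1 that rose (ATP5IF1). They are the 250 bases before the start site of the gene in RefSeq, GRCh38.p14, on the plus strand, at chr3:120596086-120596335 for NDUFB4, chr11:112086623-112086872 for SDHD, chr5:86617691-86617940 for COX7C and chr1:28235874-28236123 for ATP5IF1. Capitals mark matches on either strand to the NRF1 palindrome (the run of capitals farthest from the start in NDUFB4 and SDHD), to its looser form, which allows any base at the fifth letter and so includes the palindrome, to the ETS site CCGGAAG as bound by GABP, and to the YY1 element.
NDUFB4: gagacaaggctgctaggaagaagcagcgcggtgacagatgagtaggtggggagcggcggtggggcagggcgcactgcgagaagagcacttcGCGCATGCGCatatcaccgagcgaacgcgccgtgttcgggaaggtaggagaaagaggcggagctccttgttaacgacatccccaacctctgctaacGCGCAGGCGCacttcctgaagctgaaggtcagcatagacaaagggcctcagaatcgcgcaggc
SDHD: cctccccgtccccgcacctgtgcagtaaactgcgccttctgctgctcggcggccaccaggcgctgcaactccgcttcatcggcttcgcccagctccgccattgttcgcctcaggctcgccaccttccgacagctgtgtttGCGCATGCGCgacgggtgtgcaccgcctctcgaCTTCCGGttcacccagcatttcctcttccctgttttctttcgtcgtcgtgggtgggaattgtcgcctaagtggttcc
COX7C: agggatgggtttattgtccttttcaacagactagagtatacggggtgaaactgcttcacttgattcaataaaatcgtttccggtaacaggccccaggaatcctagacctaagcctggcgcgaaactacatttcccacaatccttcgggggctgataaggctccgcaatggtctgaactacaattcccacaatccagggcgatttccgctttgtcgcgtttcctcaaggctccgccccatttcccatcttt
ATP5IF1: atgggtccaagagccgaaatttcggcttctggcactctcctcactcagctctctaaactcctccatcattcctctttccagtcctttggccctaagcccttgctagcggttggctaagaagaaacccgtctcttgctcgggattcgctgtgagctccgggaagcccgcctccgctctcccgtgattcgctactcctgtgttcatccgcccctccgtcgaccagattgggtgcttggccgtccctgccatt
NDUFB4 held the NRF1 palindrome and a second looser match nearer the start, SDHD held the palindrome and an ETS site in reverse orientation, and COX7C and ATP5IF1 held no match to these letters. In windows of 250 bases before and 50 after the start, matched for 68 of the 86 genes, the looser NRF1 motif stood in 17 (25%), against 6.28% of 27305 promoters of the same length. The NRF1 palindrome stood in 4 of the 68 (5.88%), against 1.36% of all, the ETS site in 19 (27.9%), against 10.7%, and the YY1 element in 9 (13.2%), against 1.55%. Among genes that fell, 8 of 29 with a promoter held the looser NRF1 motif and 10 held the ETS site; among genes that did not pass, 8 of 31 held the looser NRF1 motif and 8 held the ETS site. Of 4 genes with a promoter that rose, 0 held the looser NRF1 motif and 1 held the ETS site. A match describes the letters and does not show that a factor bound there.

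Complex I takes electrons from NADH in a matrix arm and pumps protons through a membrane arm. In the matrix arm 7 of 16 genes fell and 0 rose, against 19.0% and 17.5% of all genes tested. By mean CPM, the share of all genes that fell ran from 4.96% below 10 CPM to 41.4% at 100 CPM or more. Of its 7 core subunits, which carry the flavin and the iron-sulfur clusters, 5 fell, and their median log2 fold change was -0.20. NDUFV1, the subunit that binds the flavin and oxidises NADH (ENSG00000167792, GRCh37 chr11:67373124-67380025, plus strand), had 192 and 198 CPM with CBL0137, against 228 and 222 CPM with DMSO. The libraries of the groups did not overlap. In log2 it differed by -0.21 ± 0.04 (SE, n = 2 per group), with an edgeR adjusted p = 0.000143. NDUFS1, the largest core subunit, had 175 and 180.4 CPM with CBL0137 and 207 and 201 CPM with DMSO (log2 fold change -0.20 ± 0.04, edgeR adjusted p = 0.00026). The core subunit NDUFV2 had the lowest fitted log2 fold change of all, -0.72 ± 0.34, but only 1.14 and 0.864 CPM with CBL0137 against 1.79 and 1.51 CPM with DMSO, and did not pass the test (edgeR adjusted p = 0.101). NDUFS7, another core subunit, did not pass either (log2 fold change -0.37, edgeR adjusted p = 0.146). The counts of both were low for their mean FPKM, which was 51.2 for NDUFV2 and 45.7 for NDUFS7. Their count indices, explained below, were 0.0095 and 0.0108.

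Of the 20 accessory subunits of the membrane arm, 5 fell, 3 rose and 12 did not pass, with a median log2 fold change of -0.05. These counts are near the shares over all genes, 19.0% lower and 17.5% higher. NDUFB4 (ENSG00000065518, GRCh37 chr3:120315175-120321354, plus strand) had 73.5 and 68.6 CPM with CBL0137, against 99.2 and 106 CPM with DMSO. It had the smallest adjusted p in complex I, and the groups stood well apart. Its mean was 71.0 ± 3.45 CPM with CBL0137 and 103 ± 4.93 CPM with DMSO (SD, n = 2 each), and the log2 fold change was -0.53 ± 0.05 (edgeR adjusted p = 1.08e-08). NDUFB6 (ENSG00000165264, GRCh37 chr9:32552997-32573160, minus strand) had 29.4 and 26.7 CPM with CBL0137, against 39.0 and 38.6 CPM with DMSO. Its log2 fold change was -0.47 ± 0.07 (edgeR adjusted p = 1.09e-05). NDUFB4 and NDUFB6 also fell in limma-trend on FPKM, by 0.47 and 0.39 on the log2 scale.

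In the same arm, NDUFC1 (ENSG00000109390, GRCh37 chr4:140188034-140223705, minus strand) rose. It had 74.6 and 76.9 CPM with CBL0137, against 62.0 and 64.0 CPM with DMSO, without overlap. Its log2 fold change was 0.27 ± 0.05 (edgeR adjusted p = 0.000288) in counts and 0.61 on FPKM (limma-trend adjusted p = 0.0162). NDUFB1, chosen after its values were seen, rose by 0.23 ± 0.07 in log2 (edgeR adjusted p = 0.0104), and NDUFA13, also known as the cell death regulator GRIM-19, rose by 0.75 ± 0.29 (edgeR adjusted p = 0.042). NDUFA13 rested on 55 and 73 reads with CBL0137 and 52 and 26 reads with DMSO. Without DMSO replicate 2 its log2 fold change was 0.34 (edgeR adjusted p = 0.464), without CBL0137 replicate 2 it was 0.60 (adjusted p = 0.174), and on FPKM it was -0.05. On all 4 libraries, DESeq2 did not pass NDUFA13 (adjusted p = 0.171). NDUFB9, the tested complex I subunit with the highest mean FPKM, 183, had 89.2 and 88.8 CPM with CBL0137 and 83.3 and 81.6 CPM with DMSO (log2 fold change 0.11, edgeR adjusted p = 0.0813). NDUFB9 passed as higher with library size alone (0.17) and with upper-quartile factors (0.16).

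NDUFA4 carries a complex I name but is now placed in complex IV, and NDUFA4L2 is its paralog, known as a gene induced by hypoxia. NDUFA4 had 173 and 165 CPM with CBL0137, against 156 and 164.5 CPM with DMSO, and did not pass (log2 fold change 0.08, edgeR adjusted p = 0.164), though it passed as higher with library size alone (0.14) and with upper-quartile factors (0.13). NDUFA4L2 had 2.52 and 2.20 CPM with CBL0137, against 1.49 and 1.11 CPM with DMSO. The groups did not overlap at that low level, and its log2 fold change of 0.86 ± 0.29 passed both limits (edgeR adjusted p = 0.0224). That call rested on 53 and 51 reads against 34 and 25, and it was lost without DMSO replicate 2 (log2 fold change 0.65, edgeR adjusted p = 0.187), without CBL0137 replicate 1 (0.75, adjusted p = 0.108) and under DESeq2 (adjusted p = 0.126).

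Complex II, succinate dehydrogenase, feeds electrons from the tricarboxylic acid cycle into the chain and has 4 subunits, all nuclear. The membrane anchor SDHD fell, and so did SDHB, the iron-sulfur subunit. SDHD (ENSG00000204370, GRCh37 chr11:111957548-111990739, plus strand) had 44.4 and 42.2 CPM with CBL0137, against 54.4 and 54.9 CPM with DMSO, without overlap (log2 fold change -0.34 ± 0.06, edgeR adjusted p = 8.33e-05). On FPKM its log2 fold change was -0.32. SDHB had 131 and 132 CPM with CBL0137 and 146 and 141 CPM with DMSO (log2 fold change -0.13 ± 0.04, edgeR adjusted p = 0.0221). That call was lost without DMSO replicate 1 (log2 fold change -0.10, edgeR adjusted p = 0.207), under DESeq2 (adjusted p = 0.0748) and with library size alone (-0.07). SDHC, the other anchor, had 130.4 and 137 CPM with CBL0137 and 124.5 and 129 CPM with DMSO and did not pass (log2 fold change 0.08, edgeR adjusted p = 0.194), though it passed as higher with library size alone (0.14) and with upper-quartile factors (0.12). SDHA, the flavoprotein that oxidises succinate, was counted at only 95 and 100 reads with CBL0137 and 87 and 101 reads with DMSO, and its log2 fold change was 0.09 in counts and -0.24 on FPKM. Its counts were low for its mean FPKM of 45.5 (count index 0.0108, explained below). The median of the complex, -0.03, was 0.04 with library size alone and 0.02 with upper-quartile factors.

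Complex III passes electrons from ubiquinol to cytochrome c. Of its 9 genes, 5 fell and 0 rose, against 19.0% and 17.5% of all genes tested. With DMSO their means ran from 2.98 to 270 CPM. The share of all genes that fell was 4.96% below 10 CPM, 22.0% at 10 to 50 CPM, 33.3% at 50 to 100 CPM and 41.4% at 100 CPM or more. The median log2 fold change of the 9 was -0.17. Both core proteins fell. UQCRC2 (ENSG00000140740, GRCh37 chr16:21964609-21994981, plus strand) had 221 and 232 CPM with CBL0137, against 269 and 271.5 CPM with DMSO, without overlap (log2 fold change -0.25 ± 0.04, edgeR adjusted p = 7.78e-06). UQCRFS1, the Rieske iron-sulfur protein, had 109 and 108.5 CPM with CBL0137, against 122 and 128 CPM with DMSO (log2 fold change -0.20 ± 0.05, edgeR adjusted p = 0.00112). UQCRH, the hinge protein, fell by 0.19 on the log2 scale, and UQCRB, a subunit near the quinone site, by 0.21. UQCRHL, an intronless copy of UQCRH, had 3.81 and 2.59 CPM with CBL0137 and 2.06 and 3.91 CPM with DMSO. Its groups overlapped, and its value is uncertain. Reads that did not align uniquely were set aside in the counting, between 6.43% and 7.78% of all reads per library. Reads shared by near-identical copies may be among them.

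Complex IV reduces oxygen to water, and its nuclear subunits surround a core made in mitochondria. All 9 widely used subunits placed here by symbol had a negative log2 fold change in the TMM fit. Of these 4 fell, and their median was -0.09. The 9 leave out NDUFA4, counted under complex I by its name, and COX4I1, which the symbol rule did not match. Neither passed, at log2 fold changes of 0.08 (edgeR adjusted p = 0.164) and -0.07 (edgeR adjusted p = 0.191). COX7C (ENSG00000127184, GRCh37 chr5:85913745-85916779, plus strand) had 138.2 and 138.3 CPM with CBL0137, against 192.7 and 192.5 CPM with DMSO. Its libraries hardly varied within a group and were far apart between groups. Its log2 fold change of -0.48 ± 0.04 had the smallest adjusted p of all 79 genes (edgeR adjusted p = 6.64e-10), and on FPKM it was -0.43. COX8A, with the highest mean FPKM in the complex, 329, had 20.8 and 19.7 CPM with CBL0137, against 25.7 and 26.9 CPM with DMSO (log2 fold change -0.38 ± 0.08, edgeR adjusted p = 0.000834). Its counts were low for its FPKM (count index 0.143, explained below). On FPKM the log2 fold change of COX8A was -0.19 and did not pass (limma-trend adjusted p = 0.0574). COX7B fell by 0.25 on the log2 scale, and COX6B1 fell by 0.13 (edgeR adjusted p = 0.029), a call lost without CBL0137 replicate 2 (-0.11, adjusted p = 0.107), without DMSO replicate 2 (-0.09, adjusted p = 0.348) and in DESeq2 (adjusted p = 0.1). COX6A1 and COX7A2 did not pass, at log2 fold changes of -0.03 and -0.05; both were above 0 with library size alone (0.03 and 0.01).

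The tissue-restricted partners of these subunits were almost silent. COX6A2, the heart and muscle form of COX6A1, and COX7B2, a testis form of COX7B, had 0 reads in all 4 libraries, where a count of 0 allows at most 0.128 to 0.146 CPM per library for counting error alone. The muscle form COX7A1 had 3 and 9 reads with CBL0137 and 2 and 4 with DMSO, and COX8C, known from testis, had 1 and 0 with CBL0137 and 1 and 0 with DMSO. COX6B2, a testis form, had 1.38 and 1.12 CPM with CBL0137, against 1.18 and 1.24 CPM with DMSO, and was tested but did not pass (log2 fold change 0.04, edgeR adjusted p = 0.944). Of 10 striated muscle markers 3 were tested, 4 (MYH7, TNNT3, MYOD1 and MYOG) were at 0, and their summed level was 54.8 and 55.3 CPM with CBL0137, against 36.5 and 36.3 CPM with DMSO. Most of that sum was TNNT1, a slow muscle troponin, with 40.6 and 41.7 CPM with CBL0137, against 24.0 and 23.3 CPM with DMSO. TNNT1 rose by 0.80 ± 0.07 in log2 (edgeR adjusted p = 2.19e-09), and the other tested markers MYH3 and TTN did not pass. Any part of muscle genes in the subunit results was not tested.

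**Figure D3:**
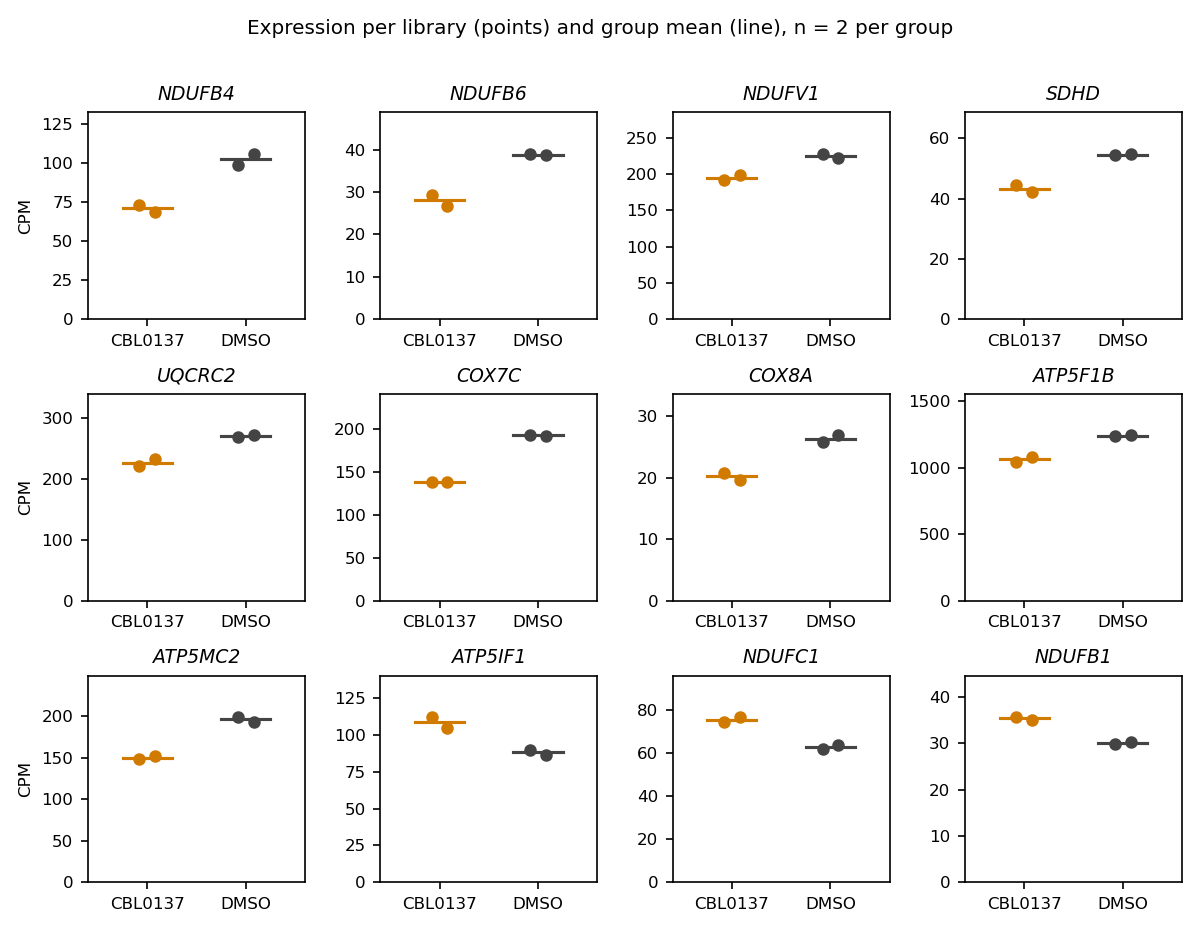
Expression of selected subunit genes in each library (CPM), with CBL0137 libraries left of DMSO libraries. NDUFB4, SDHD, COX7C and ATP5MC2 were lower in both CBL0137 libraries, and NDUFC1 and ATP5IF1 were higher in both.

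Complex V, the ATP synthase, has a catalytic F1 head in the matrix, a rotating c ring in the membrane and a peripheral stalk. Of 18 tested genes, 11 fell and 1 rose, against 19.0% and 17.5% of all genes tested. By mean CPM, the share of all genes that fell ran from 4.96% below 10 CPM to 41.4% at 100 CPM or more. In the F1 head 4 of 5 fell. ATP5F1B, the catalytic beta subunit (ENSG00000110955, GRCh37 chr12:57031959-57039768, minus strand), had the highest mean FPKM of the 86 genes, 438, and had 1046 and 1085 CPM with CBL0137, against 1238 and 1244 CPM with DMSO. The groups did not overlap (log2 fold change -0.22 ± 0.03, edgeR adjusted p = 2.26e-06). ATP5F1A, the alpha subunit, had 498 and 520.2 CPM with CBL0137, against 591 and 585 CPM with DMSO, and its log2 fold change was -0.21 ± 0.03 in counts (edgeR adjusted p = 2.05e-05) but 0.04 on FPKM. ATP5F1E, the epsilon subunit, had 117 and 104 CPM with CBL0137 and 101 and 113 CPM with DMSO, which overlapped (log2 fold change 0.04, edgeR adjusted p = 0.596).

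The 3 c ring genes, ATP5MC1, ATP5MC2 and ATP5MC3, encode the same mature protein with different import peptides, and all 3 fell. ATP5MC2 (ENSG00000135390, GRCh37 chr12:54026510-54071192, minus strand) had 148 and 152 CPM with CBL0137, against 199 and 193 CPM with DMSO. It was the most reduced of the 3 and the groups stood apart (log2 fold change -0.39 ± 0.04, edgeR adjusted p = 3.06e-08). ATP5MC3 had 191 and 206 CPM with CBL0137, against 230.5 and 223 CPM with DMSO (log2 fold change -0.19 ± 0.04, edgeR adjusted p = 0.000664), and ATP5MC1 had 64.8 and 63.7 CPM with CBL0137, against 69.1 and 72.2 CPM with DMSO (log2 fold change -0.14 ± 0.05, edgeR adjusted p = 0.0465). The call of ATP5MC1 was lost with any 1 of the 4 libraries left out, at log2 fold changes of -0.17 to -0.11, and in DESeq2 (adjusted p = 0.165). Of the 4 peripheral stalk genes 2 fell (ATP5PB and ATP5PO), and of 5 other membrane subunits 2 fell (ATP5MG and ATP5MJ). Of all genes tested, 19.0% fell. DESeq2 passed none of ATP5PB, ATP5PO, ATP5MG and ATP5MJ (adjusted p = 0.0968, 0.069, 0.0661 and 0.0566), and none passed in limma-trend on FPKM. The count index, explained below, was 0.0262 for ATP5PO and 0.0224 for ATP5MG.

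The 1 gene of complex V that rose was its inhibitor. ATP5IF1, which blocks the enzyme from running backwards and spending ATP (ENSG00000130770, GRCh37 chr1:28562620-28573417, plus strand), had 112 and 105 CPM with CBL0137, against 89.8 and 86.3 CPM with DMSO. The groups did not overlap, with means of 108 ± 4.97 CPM with CBL0137 and 88.0 ± 2.46 CPM with DMSO (SD, n = 2 each). Its log2 fold change was 0.30 ± 0.05 in counts (edgeR adjusted p = 2.8e-05) and 0.41 on FPKM (limma-trend adjusted p = 0.0214).

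The counts of some genes were far smaller than their FPKM. A count index was formed as the CPM over all gene counts divided by the mean FPKM times the exon length in kilobases, and it is 1 where the counts are as large as the FPKM gives. It had a median of 0.464 over the 79 genes and 0.891 over 11118 protein-coding genes, and was under 0.1, a limit chosen after seeing the data, in 17 of the 79 (21.5%), against 2.89% of the 11118. NDUFB8 had 2.81 and 2.76 CPM with CBL0137 and 2.63 and 2.84 CPM with DMSO at a mean FPKM of 162, an index of 0.00851, and NDUFA13 had an index of 0.00609 at a mean FPKM of 140.1. All 17 share exon bases with another annotated gene, over a median of 21.0% of their exon length, against a median of 0% in the other 62. Reads that touched more than 1 gene were set aside as ambiguous in the counting and made up between 9.19% and 9.50% of all reads per library. Whether shared exons led to the low counts was not tested. The readthrough gene NDUFC2-KCTD14 had 0 reads in every library at FPKM of 90.8 and 95.7 with CBL0137 and 98.7 and 96.0 with DMSO. The readthrough gene ATP5MF-PTCD1 and ATP5MGL, a copy of ATP5MG, had at most 3 reads in any library and were not tested. Without the 17 genes, 32 of 62 fell and 4 rose, and the median log2 fold change stayed at -0.13.

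The FPKM test, which left out NDUFA4L2 and COX6B2 and took in both readthrough genes, made fewer calls, 6 lower and 4 higher, against 5.36% lower and 6.88% higher of 14139 genes tested that way. Of the 34 genes that fell in counts, 33 also had a negative difference on FPKM and 6 passed there (NDUFA1, NDUFB4, NDUFB6, SDHD, COX7C and ATP5MC2). DESeq2 passed 24 of the 34, where 13.6% of all genes were lower. Of the 5 genes that rose, NDUFC1, NDUFB1 and ATP5IF1 passed on FPKM, and NDUFC1 and ATP5IF1 passed in DESeq2, where 10.7% of all genes were higher. NDUFS1, which fell in counts, had a log2 difference near 0 on FPKM (limma-trend adjusted p = 0.99).

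**Figure D4:**
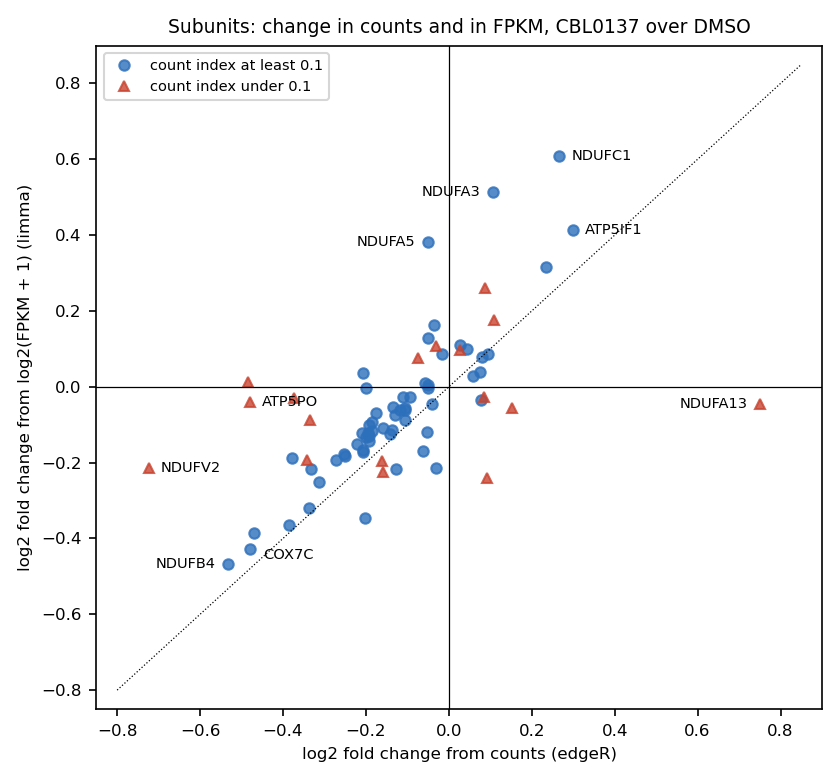
Log2 fold change of CBL0137 over DMSO from counts (horizontal axis, edgeR) and from log2(FPKM + 1) (vertical axis, limma) for the subunit genes tested both ways, with triangles for a count index under 0.1 and a dotted line of equal change. NDUFB4 and COX7C lie low and ATP5IF1 and NDUFC1 high on both axes, while NDUFA13 reached 0.75 on counts and -0.05 on FPKM.

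Chain genes outside the symbol rule moved the same way in most cases. Of 5 tested, 4 fell, among them CYC1, the cytochrome c1 of complex III, CYCS, cytochrome c itself, and COX7A2L, which links complexes III and IV. Of all genes tested 19.0% fell. That share was 33.3% between 50 and 100 CPM and 41.4% at 100 CPM or more. CYC1 had 344 and 327 CPM with CBL0137, against 432 and 435 CPM with DMSO (log2 fold change -0.37 ± 0.04, edgeR adjusted p = 6.62e-09). CYCS fell by 0.37 and COX7A2L fell by 0.34 on the log2 scale.

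The 13 subunit genes of mitochondrial DNA did not share a direction. Of these, 4 fell, 3 rose and 6 did not pass, and their summed level was 44671 and 44451 CPM with CBL0137, against 44592 and 44274 CPM with DMSO. All 13 averaged at least 100 CPM, where 41.4% of all genes fell and 21.1% rose. MT-ND1 had 2049 and 1991 CPM with CBL0137, against 1640.1 and 1562 CPM with DMSO, and rose by 0.34 ± 0.03 in log2 (edgeR adjusted p = 2.5e-09). MT-CYB rose by 0.12 and MT-ND4 fell by 0.10 on the log2 scale, the call of MT-ND4 being lost without DMSO replicate 2 (edgeR adjusted p = 0.0582) and with library size alone. The difference between nuclear and mitochondrial subunits was not tested.

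Among genes that build the chain, the shares that passed were near those over all genes, 19.0% lower and 17.5% higher. Of 16 complex I assembly factors, 4 fell and 2 rose. NDUFAF3 and ACAD9 rose by 0.40 and 0.20, and ECSIT, FOXRED1 and NUBPL had log2 fold changes of -0.24, -0.19 and -0.41. Among 30 tested assembly factors of complexes II to V, 7 fell and 5 rose; UQCC2, which serves cytochrome b, COX17, a copper chaperone, and ATPAF1, an F1 assembly factor, fell by 0.52, 0.45 and 0.46 on the log2 scale, while SURF1, a complex IV assembly factor, and UQCC1, a partner of UQCC2, rose by 0.26 and 0.21. NDUFAF3, ACAD9, SURF1 and UQCC1 were picked once their values were known, and of these DESeq2 passed UQCC1 only. Among 17 tested regulators of mitochondrial gene expression, 5 fell and 1 rose, which is 29.4% and 5.88%. GABPA, the DNA-binding subunit of GABP, had 49.0 and 51.6 CPM with CBL0137, against 62.8 and 64.9 CPM with DMSO (log2 fold change -0.34 ± 0.06, edgeR adjusted p = 3.62e-05). NRF1, chosen after its values were seen, fell by 0.26 (edgeR adjusted p = 0.0162), a call lost in DESeq2 (adjusted p = 0.0946) and on FPKM (limma-trend adjusted p = 0.25). POLRMT, the mitochondrial RNA polymerase, fell by 0.21, and LRPPRC, which stabilises mitochondrial messengers, rose by 0.17 on the log2 scale.

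In the tricarboxylic acid cycle, which supplies the NADH and succinate, 7 of 14 genes fell and 0 rose, with a median log2 fold change of -0.13. With DMSO their means ran from 18.9 to 377 CPM. Of all genes tested, 19.0% fell and 17.5% rose. The share of all genes that fell was 22.0% at 10 to 50 CPM, 33.3% at 50 to 100 CPM and 41.4% at 100 CPM or more. OGDH, a subunit of the 2-oxoglutarate dehydrogenase complex, had 188 and 196 CPM with CBL0137, against 267 and 259 CPM with DMSO (log2 fold change -0.45 ± 0.04, edgeR adjusted p = 9.92e-10). IDH2, mitochondrial isocitrate dehydrogenase, fell by 0.51 on the log2 scale. SUCLG2, chosen after its values were seen, was the only gene of these related lists past 1.5-fold, with 11.5 and 10.7 CPM with CBL0137, against 18.8 and 19.0 CPM with DMSO.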

How the data were processed

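RNA was isolated with TRIzol from A673 cells, per the labels' protocols. The authors trimmed reads with Trim Galore, aligned them with HISAT2 to hg19 (GRCh37) and deposited gene counts made with HTSeq 0.11.1, per the submitters' processing notes. Those notes also list DESeq2 1.26.0 and a mouse build of unstated use. FPKM values of the authors stand beside the counts in the deposited table. What made the FPKM, the annotation release, strandedness and poly(A) selection were not given in the sources used here. Overlapping and antisense genes may therefore not be told apart.

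HTSeq summary rows held between 23.7% and 24.8% of reads and stayed out of library sizes and tests. IDs were matched to GENCODE release 44 lifted to GRCh37, which named 58524 of 60617. Counts were tested with edgeR 4.0.16 (R 4.3.3; TMM, filterByExpr at a minimum count of 10, quasi-likelihood test, Benjamini-Hochberg adjustment over all 17309 genes that passed), with no replicate term. The standard error is the log2 fold change divided by the square root of the F statistic. The common coefficient of biological variation came to 3.18%. FPKM was tested with limma 3.58.1 (limma-trend) on log2(FPKM + 1) for genes of at least 1 FPKM in 2 libraries, where fold changes of low genes are understated. DESeq2 1.42.0, limma-voom, other scalings and filters, and each replicate left out were alternatives. Between replicates, counts varied beyond sampling noise (chi-square per degree of freedom 2.47 in CBL0137, 2.02 in DMSO). The test was checked on simulated data. Sequences are RefSeq promoters of GRCh38.p14.

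The members and lists were chosen with earlier results of these data known. Genes were named by a rule: those past the fold limit, the 4 smallest adjusted p per complex, the highest and lowest mean FPKM per complex, isoform partners, ATP5IF1, SDHA to SDHD, and the 3 smallest adjusted p per related list. A gene that this rule takes is not reported here. Others served as examples of a count and were chosen after their values were seen. Marker lists for blood cells (2 of 4 tested, summed level 6.81 and 6.65 CPM with CBL0137, against 4.11 and 3.91 CPM with DMSO) were also checked. Of these, ITGAM rose by 0.72 in log2 (edgeR adjusted p = 0.00192), with 133 and 137 reads with CBL0137 and 87 and 81 with DMSO. CD14 did not pass.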

Additional observations from a re-analysis of the deposited data

How the results depend on the processing

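Each condition had 2 libraries. Under 10 CPM, 1 of 18 subunit genes fell and 2 rose, and the part of depth in that was not tested. The count of subunit genes that fell, 34, was 6 on FPKM with either pseudocount, 29 with the replicate block and 26 to 33 with a library left out. The count that rose, 5, was 2 in DESeq2, 8 with library size alone, 8 with upper-quartile factors, 4 with the block and 3 to 4 with a library left out, the 3 being without DMSO replicate 2. Past 1.5-fold, the 0 lower genes were 0 to 2 with a library left out, and the count of 2 higher genes was 0 in DESeq2, 1 on FPKM (NDUFC1, with neither NDUFA13 nor NDUFA4L2), 1 with the block, 1 among genes with a count index of at least 0.1 (chosen after seeing the data) and 0 to 2 with a library left out. Deviations of same-numbered libraries from their group means had a correlation of -0.02 over 17309 genes. With 2 libraries per group the deviations of replicate 2 mirror those of replicate 1. The value therefore cannot tell whether the libraries were paired. The block ended the calls of NDUFA13 and SDHB (edgeR adjusted p = 0.053 for each).

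Over all genes, 472 past 1.5-fold and lower were 237 and 189 on log2(FPKM + 0.1) and log2(FPKM + 1), and 1191 higher were 709 in DESeq2 and 489 and 388 on FPKM. With the replicate block no other call of a named subunit changed except those of COX6B1 and ATP5MC1, which were lost (edgeR adjusted p = 0.0645 and 0.0811). At the adjusted p alone, 3292 lower genes were 752 and 758 on FPKM, and 3022 higher genes were 1845 in DESeq2 and 939 and 973 on FPKM. The higher share of all calls, 47.9%, was 59.3% with upper-quartile factors and 62.6% with library size alone, where the subunit genes gave 28 lower and 8 higher, and 25 lower and 8 higher. In the related lists, 31 lower genes were 9 on FPKM, and 11 higher genes were 4 in DESeq2, 17 with library size alone, 5 on FPKM and 5 to 13 with a library left out, the 5 being without DMSO replicate 1.

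The median log2 fold change of complex I, -0.11, was -0.094 with a filter of 1 CPM, -0.12 with no filter, -0.045 with library size alone, -0.058 with upper-quartile factors, -0.058 and -0.056 on FPKM with the smaller and larger pseudocount, and -0.12 to -0.097 with a library left out. That of complex II, -0.026, was 0.036, 0.022 and -0.23 with library size alone, upper-quartile factors and FPKM, -0.13 at an index of at least 0.1, and -0.066 to -0.034 with a library left out. Complex III, at -0.17, gave -0.11, -0.13 and -0.13 under the same settings, and -0.20 to -0.15 with a library left out. Complex IV, at -0.072, gave -0.011 and -0.024 with those scalings, and -0.11 to -0.073 with a library left out. Complex V, at -0.16, gave -0.099 with library size alone, -0.11 with upper-quartile factors, -0.089 and -0.088 on FPKM, -0.19 with no filter, and -0.18 to -0.16 with a library left out.

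Signs turned on FPKM for NDUFA13 (-0.046 with either pseudocount), NDUFA4 (-0.036 and -0.035), ATP5F1A (0.037 with either), COX6A1 (0.11) and SDHA (-0.25 and -0.24), and with library size alone for COX6A1 (0.032) and COX7A2 (0.012). COX6A1 was 0.018 with upper-quartile factors. With a library left out, UQCRHL ran from -0.30 to 0.62, COX6B2 from -0.11 to 0.18, ATP5F1E from -0.048 to 0.13, COX6A1 from -0.081 to 0.017 and SDHA from -0.028 to 0.21. The cause was not tested. Over the named subunit genes and all alternatives, 349 values kept their direction and side of the limit, 53 lost the call, 7 gained it and 21 turned sign.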

Other observations

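In 6 of the 79 tested genes the larger FPKM of a condition was more than 1.5 times the smaller. UQCRHL and NDUFA4L2, which are among them, also varied in counts, with the larger CPM of a condition up to 1.90 and 1.34 times the smaller. SDHB had an FPKM of 46.4 and 48.4 with CBL0137 and of 81.3 and 37.6 with DMSO, while its counts gave 131 and 132 CPM with CBL0137 and 146 and 141 CPM with DMSO. NDUFA5, a matrix arm subunit, had an FPKM of 30.0 and 21.2 with CBL0137 and of 15.4 and 23.6 with DMSO, at 87.4 and 86.6 CPM with CBL0137 and 90.8 and 89.3 CPM with DMSO. NDUFA3, a membrane arm subunit, passed as higher on FPKM (log2 difference 0.51, limma-trend adjusted p = 0.0341) but not in counts (0.11, edgeR adjusted p = 0.436).

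Of 121 pseudogenes whose symbols matched the rule, 3 had enough reads for the test and none passed. By edgeR, 1 of them, ATP5MC1P4, had an unadjusted p under 0.05, with 8 and 10 reads with CBL0137 and 21 and 17 reads with DMSO. These genes were chosen after their values were seen.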
